A study of Litchi chinensis with 18 samples.

Results

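The genes of jasmonate synthesis and signalling in litchi flowers were picked by their Swiss-Prot annotation in the deposited expression table. A row was a member if that annotation named a lipoxygenase, an allene oxide enzyme, a 12-oxophytodienoate reductase, a phospholipase A1 subtype, a TIFY protein, coronatine-insensitive, a jasmonic acid-amido synthetase or jasmonate. This gave 75 of 37401 gene models, which form 66 of 34024 loci, and the models of a locus were summed. Of the 66 members, 53 passed the filter on low counts, as did 24666 of all loci. The 13 below it were 7 annotated 9-lipoxygenases (4 of them with 0 counts in every library), 2 phospholipases A1, 2 12-oxophytodienoate reductases, TIFY 3B and the jasmonate O-methyltransferase LITCHI010255, which had 2 counts in a single F-stamen library.

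The 18 RNA-seq libraries came from 6 kinds of organ, 3 libraries each, of the cultivar 'Feizixiao' at full bloom. F-stamen is the rudimentary stamen and F-carpel the carpel of flowers that function as female. M-stamen and M-carpel came from flowers that function as male and whose rudimentary pistil is hard to see, and m-stamen and m-carpel from functionally male flowers with a plainly visible one. No treatment or allele separates the groups, and the labels give the sex and the tissue only. The sources describe sampling from several sides of a tree, not separate trees, so the p-values measure the spread between these samples, which may be technical. In whole organs, fewer cells of a type and less RNA per cell cannot be told apart.

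Jasmonates are lipid hormones. Plastid lipases release linolenic acid, 13-lipoxygenases (13-LOX) oxygenate it, allene oxide synthase (AOS) and allene oxide cyclase (AOC) make 12-oxophytodienoic acid, and 12-oxophytodienoate reductase (OPR) with peroxisomal beta-oxidation leads to jasmonic acid. JAR1 joins this acid to isoleucine, the F-box protein COI1 binds the conjugate together with a JAZ repressor of the TIFY family, and loss of the repressor frees MYC transcription factors. In Arabidopsis, mutants in the pathway have stamens that fail to elongate, open or shed fertile pollen, and in maize jasmonate is needed for the abortion of pistils in the tassel.

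Total counts were between 25689398 and 32302522 per library. Libraries of 1 organ correlated at 0.9895 to 0.9931 on the log2 (CPM + 1) scale and libraries of different organs at 0.7503 to 0.9567. Within organs, chi-square per locus between the counts of 2 libraries was 41.31 and 57.49 for M-carpel replicate 1 against the other M-carpel libraries, which were at 14.42 from each other. It was 34.12 and 35.34 for M-stamen replicate 1, with 10.7 between the other M-stamen libraries, and 8.041 to 24.83 in the other 4 organs. Without M-carpel replicate 1, 23 members were called in M-stamen against M-carpel, against 21 with all libraries, and 32 in F-carpel against M-carpel, against 33. Without M-stamen replicate 1, 20 were called in M-stamen against M-carpel and 17 in F-stamen against M-stamen, against 18 with all libraries. The sum of 24 annotated pollen and anther loci ranged over 5449 to 5957 CPM for F-stamen, 3229 to 3420 for M-stamen, 9505 to 9693 for m-stamen, 684.5 to 759.3 for F-carpel, 624.6 to 657.9 for M-carpel and 393.3 to 431.5 for m-carpel, with 2 to 4 of the loci at 0 counts in an organ. At the median, the carpel level of the pollen and anther loci was 1.84% of the stamen level in F flowers (20 loci). It was 14.3% in M flowers (19 loci) and 8.54% in m flowers (18 loci). Tested loci with a stamen mean of at least 1 CPM in that flower type were used, so the sets differ. Single loci ranged over 0.18% to 175.9% in F, 3.64% to 209% in M and 0.274% to 210.6% in m flowers. The highest value in F flowers was that of the pollen-specific protein C13 (LITCHI010442). This locus gave most of the F-carpel sum, at a mean of 552.7 of 719.3 CPM, and F-stamen had 314.3. M-carpel had 321.5 CPM of it, whereas m-carpel had 96.4. Not every pollen and anther locus ordered the carpels as the sum did, so the sum does not rank the carpels for these loci in general. The stamen gene LcPI (LITCHI011302) had mean levels of 2.61 FPKM in F-carpel, against 76.7 in M-carpel and 4.01 in m-carpel. The sum of 12 annotated carpel and ovule loci ranged over 71.3 to 85.06 CPM for F-stamen, 136.3 to 143.8 for M-stamen, 106.8 to 112.8 for m-stamen, 116.0 to 126.2 for F-carpel, 222.9 to 249.8 for M-carpel and 190.2 to 204.1 for m-carpel, with 1 to 3 of the loci at 0 counts in an organ. Its members differed in direction. SPATULA (LITCHI006903), a carpel-margin gene, averaged 13.5 FPKM in F-carpel, against 71.8 in M-carpel and 57.8 in m-carpel. The ovule gene AGL11 (LITCHI011705) averaged 32.9, 1.12 and 7.85 FPKM in those carpels, whereas the carpel gene CRABS CLAW (LITCHI005346) was highest in M-stamen, at a mean of 56.1 FPKM. The part of these differences in tissue make-up in the results on jasmonate genes was not tested.

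Levels are given as FPKM, fragments per kilobase of gene and corrected for library size, so that genes can be set side by side. Changes are log2 fold changes fitted to the counts, with their standard error, and a locus was called at an adjusted p below 0.01 and a change of at least 1. Every adjusted p is from edgeR's quasi-likelihood test with Benjamini-Hochberg adjustment over all loci tested, with 3 libraries in each organ. The heat map of the 53 tested members shows that the organ with the highest level differed from locus to locus within most roles.

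**Figure D1:**
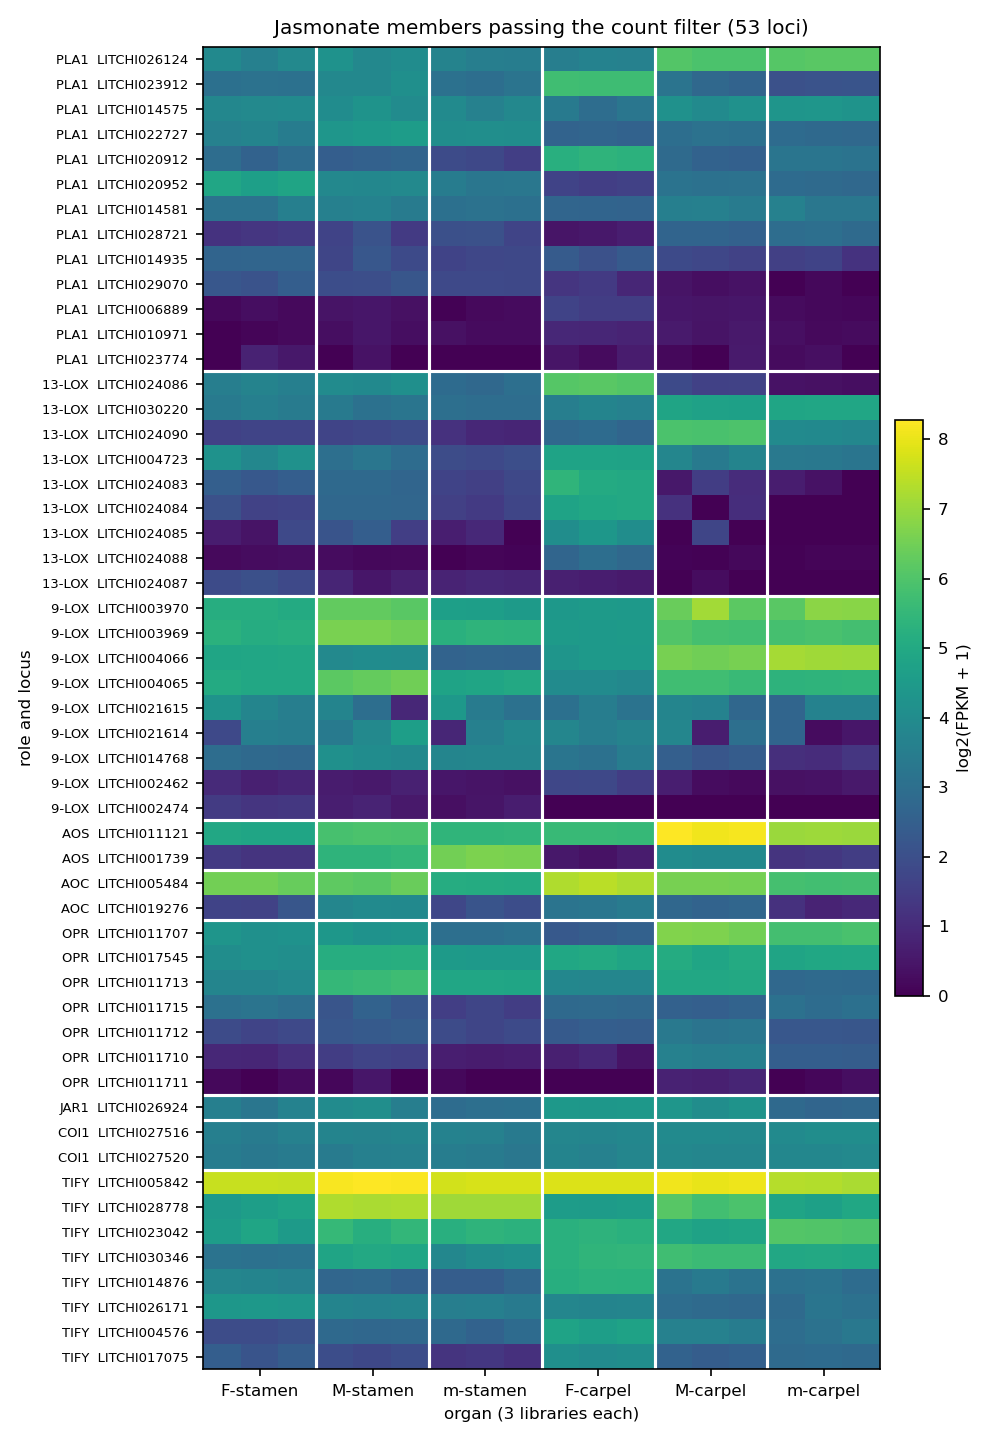
Level of each tested member on the log2 (FPKM + 1) scale, with loci in rows by role and the 18 libraries in columns, 3 for each organ. A block of 13-LOX loci is high in the F-carpel columns, and AOS LITCHI011121 is highest in M-carpel.

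In stamens against carpels, taken as the mean over the 3 organs of each kind, 11 members were higher and 13 lower, and the 24 called are 45.3% of the members tested beside 32.2% of all loci. By direction, 20.8% of the members were higher, beside 20% of all loci, and 24.5% were lower, beside 12.2%. The members' share was thus near that of all loci for higher calls. Their median change was -0.11, beside 0.01 over all loci. The stamen against carpel difference itself differed between F and M flowers for 27 members (50.9%, beside 30.0% of all loci), with 18.9% higher beside 16.2% and 32.1% lower beside 13.7%. Between F and m flowers it differed for 32 (60.4%, beside 34.3%), with 24.5% higher beside 17.4% and 35.8% lower beside 16.9%. Between M and m flowers it differed for 13 (24.5%, beside 17.7%), with 7 higher (13.2%, beside 6.76%) and 6 lower (11.3%, beside 11%). Within flowers, 25 members were called in F-stamen against F-carpel (47.2%, beside 37.0% of all loci). Of these 9 were higher (17%, beside 21.4%) and 16 lower (30.2%, beside 15.6%). In M-stamen against M-carpel 21 were called (39.6%, beside 26.7%), 12 higher (22.6%, beside 15.7%) and 9 lower (17%, beside 11%). In m-stamen against m-carpel 25 were called (47.2%, beside 41.3%), 13 higher (24.5%, beside 23.6%) and 12 lower (22.6%, beside 17.7%). With limma on log2 (FPKM + 1) the split was 6 higher and 11 lower in stamens against carpels, 9 and 13 in m-stamen against m-carpel, and 7 and 3 for the difference between M and m flowers, which was 7 and 6 in edgeR.

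Between carpels, 33 members were called in F-carpel against M-carpel (62.3%, beside 32.7% of all loci), 14 higher (26.4%, beside 16.3%) and 19 lower (35.8%, beside 16.4%). In F-carpel against m-carpel 35 were called (66.0%, beside 38.3%), 20 higher (37.7%, beside 20.6%) and 15 lower (28.3%, beside 17.7%). In M-carpel against m-carpel 14 were higher (26.4%, beside 9.95%) and 1 lower (1.89%, beside 4.8%), and the median change was 0.46 over the members and 0.02 over all loci. Between stamens, 16 members were lower in F-stamen than in M-stamen (30.2%, beside 8.1%) and 2 higher (3.77%, beside 10.6%), with a median of -0.55 over the members and 0.18 over all loci. Both higher calls were fragile. LITCHI024087 lost its call in 12 of the 18 fits that left out 1 library, those without any 1 of the 9 stamen or 3 F-carpel libraries. LITCHI014876 lost it without M-stamen replicate 3, M-carpel replicate 3 or any F-carpel library, with a smallest change of 0.91. In M-stamen against m-stamen 9 members were higher (17%, beside 5.84%) and 1 lower (1.89%, beside 7.3%). In F-stamen against m-stamen 7 were higher (13.2%, beside 12.9%) and 8 lower (15.1%, beside 10%), which is 28.3% called beside 22.9%, but the split was 10 and 3 with limma on log2 (FPKM + 1), 14 and 4 on log2 (FPKM + 0.1), and 5 and 9 with RLE size factors. In F-stamen against M-stamen limma gave 3 higher and 11 lower on log2 (FPKM + 1) and 4 and 14 on log2 (FPKM + 0.1), and a mean of at least 1 CPM gave 0 and 17. These comparisons share libraries with each other.

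**Figure D2:**
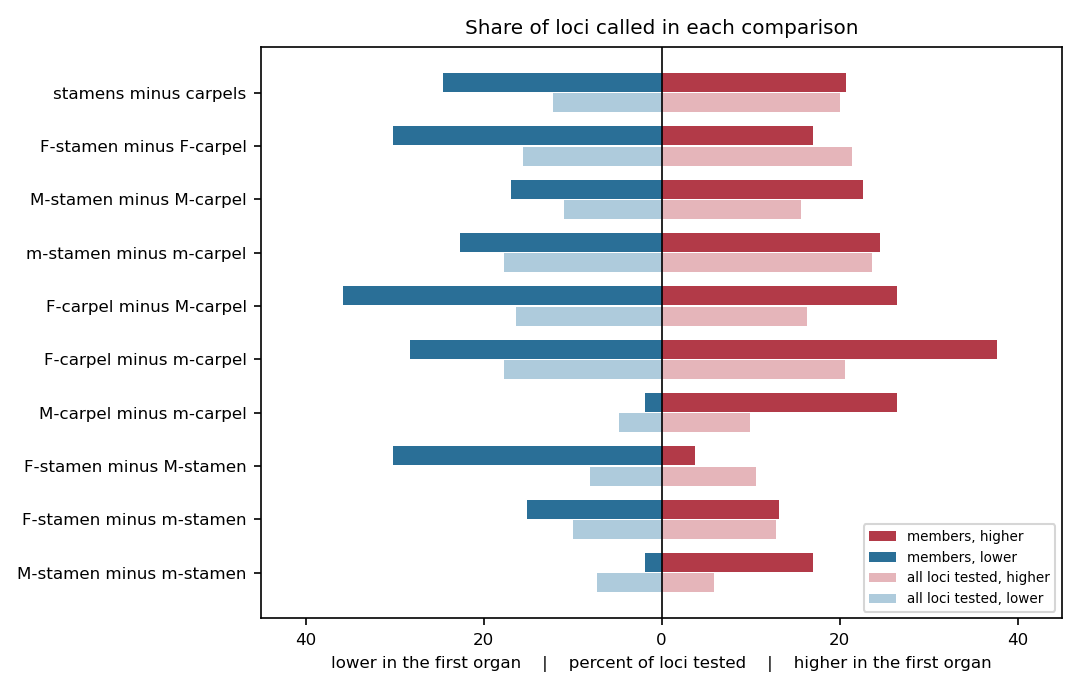
Percent of loci called higher (right) and lower (left) in the first organ of each comparison, for the 53 members (dark bars) and all 24666 loci tested (pale bars). In F-stamen minus M-stamen 30.2% of the members were lower, beside 8.1% of all loci.

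Phospholipases A1 cut glycerolipids at the first position, and related plastid enzymes release linolenic acid for jasmonate synthesis in Arabidopsis. The member with the highest level, LITCHI026124 (PLA1-Igamma2), had 14.1, 11.2 and 13.7 FPKM in F-stamen, 17.5, 13.4 and 15.3 in M-stamen and 11.9, 10.6 and 10.3 in m-stamen, and carpel levels of 10.8, 11.7 and 11.5 in F-carpel, against 66.3, 59.9 and 60.5 in M-carpel and 67.8, 70.9 and 71.1 in m-carpel. Both carpels of the male types were above every other library, and the locus was lower in F-carpel than in M-carpel (-2.65 ± 0.10, adjusted p = 2.23e-13) and m-carpel (-2.87 ± 0.10, adjusted p = 5.77e-14). LITCHI023912 (PLA1-Igamma3) had 52, 51.2 and 51.8 FPKM in F-carpel, against 8.12, 6.02 and 5.27 in M-carpel and 3.17, 3.32 and 3.43 in m-carpel, and 6.94 to 16.4 in the stamen libraries. F-carpel was above every other library (2.81 ± 0.11, adjusted p = 2.75e-13, against M-carpel). LITCHI020912 (PLA1-IIdelta) had 36.3, 40.7 and 38.6 FPKM in F-carpel, against 6.23, 5.08 and 4.86 in M-carpel and 8.25, 8.37 and 7.91 in m-carpel, and 1.91 to 6.71 in the stamen libraries. F-carpel did not overlap any other organ (2.65 ± 0.13, adjusted p = 6.95e-12, against M-carpel).

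LITCHI020952 (PLA1-IIgamma) was highest in F-stamen and lowest in F-carpel. It had 28.5, 24.6 and 27.8 FPKM in F-stamen against 2.2, 1.92 and 2 in F-carpel, a change of 3.85 ± 0.09 (adjusted p = 9.61e-17). In the male types its ranges were 13.2 to 13.8 FPKM in M-stamen, 8.46 to 10.1 in m-stamen, 7.44 to 7.83 in M-carpel and 5.88 to 6.4 in m-carpel, and the stamen was above the carpel in both without being called. LITCHI029070, of the same annotation, was at 2.5 to 4.51 FPKM in the stamen libraries and 0 to 1.67 in the carpel libraries, and was called higher in stamens (3.71 ± 0.27, adjusted p = 1.05e-09). LITCHI022727 (PLA1-Ibeta2) was at 10.1 to 22.7 FPKM in the stamen libraries and 5.09 to 7.61 in the carpel libraries, and was called in all 3 types of flower, by 1.22 in F, 1.58 in M and 1.62 in m. LITCHI014575 and LITCHI014581, both PLA1-Igamma2 and close in number, were lower in F-carpel than in M-carpel (-1.16 ± 0.11 and -1.18 ± 0.14), and LITCHI028721 (PLA1-Igamma3) had 0.397 to 0.607 FPKM in F-carpel, against 4.94 to 5.4 in M-carpel and 6.19 to 7.11 in m-carpel.

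All 9 13-LOX loci were called in F-carpel against M-carpel and in F-carpel against m-carpel, 7 higher and 2 lower in each. Of all loci tested, 32.7% were called in F-carpel against M-carpel (16.3% higher, 16.4% lower). In F-carpel against m-carpel 38.3% were called (20.6% higher, 17.7% lower). Of the 9 13-LOX loci, 7 carry neighbouring locus numbers from LITCHI024083 to LITCHI024090 and the annotation 13S-lipoxygenase 2-1 or lipoxygenase 2.1. How reads were split between them is uncertain, and their sequences were not compared here.

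LITCHI024086 had the highest level in F-carpel of the 13-LOX loci. It had 10.7, 11.9 and 11 FPKM in F-stamen, 15, 14.3 and 16.2 in M-stamen and 6.4, 5.92 and 7.1 in m-stamen, and carpel levels of 67.2, 71 and 65.2 in F-carpel, against 2.63, 2 and 2.08 in M-carpel and 0.321, 0.282 and 0.236 in m-carpel. No organ overlapped another, F-carpel was highest and m-carpel lowest. The change was 4.73 ± 0.10 in F-carpel against M-carpel (adjusted p = 6.29e-17) and 7.63 ± 0.12 against m-carpel (adjusted p = 1.59e-18). F-stamen was below F-carpel (-2.47 ± 0.09, adjusted p = 5.6e-14), whereas M-stamen was above M-carpel (2.81 ± 0.09, adjusted p = 5.07e-14) and m-stamen above m-carpel (4.73 ± 0.12, adjusted p = 4.25e-16). LITCHI024083 had 42, 32.3 and 31.1 FPKM in F-carpel, against 0.452, 1.85 and 1.08 in M-carpel and 0.568, 0.332 and 0 in m-carpel, and 1.95 to 6.17 in the stamen libraries. F-carpel was again above and both other carpels below every stamen library (4.73 ± 0.45, adjusted p = 5.16e-08, in F-carpel against M-carpel).

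LITCHI024084 had 26.8, 29.7 and 30.6 FPKM in F-carpel, against 1.24, 0 and 1.1 in M-carpel, and no count in any m-carpel library. With 3 counts over the 3 libraries of m-carpel as the floor, F-carpel was at least 283.5-fold above m-carpel. LITCHI024085 was also at 0 counts in m-carpel, with 15.8, 19.7 and 15.5 FPKM in F-carpel and 0, 2.3 and 0 in M-carpel, and F-carpel was at least 114.6-fold above m-carpel by the same floor. Its other values rest on few counts. Its call in F-stamen against F-carpel was lost without F-stamen replicate 1 or 2 or any 1 of the F-carpel libraries (adjusted p up to 0.0274), and that in F-carpel against M-carpel without F-carpel replicate 2 or M-carpel replicate 1 or 3 (up to 0.0137). LITCHI024088 had 5.47, 6.99 and 5.9 FPKM in F-carpel and at most 0.235 in any other library. LITCHI024087 was the member of the run highest in F-stamen, at 2.69, 3.02 and 2.57 FPKM, with at most 0.877 elsewhere.

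LITCHI024090, of the same run of numbers, was highest in another carpel. It had 5.97, 6.45 and 5.43 FPKM in F-carpel, against 59.8, 59 and 60.9 in M-carpel and 14.5, 14.3 and 13.3 in m-carpel, and 0.801 to 2.73 in the stamen libraries. The carpels did not overlap, and the change was -3.52 ± 0.12 in F-carpel against M-carpel (adjusted p = 3.22e-14) and 2.04 ± 0.11 in M-carpel against m-carpel (adjusted p = 8.13e-11). LITCHI030220 (13S-lipoxygenase 3-1) had 10.7, 12.2 and 11.5 FPKM in F-carpel, against 27.4, 25.4 and 25 in M-carpel and 28.3, 29.1 and 28.6 in m-carpel, and 6.72 to 10.9 in the stamen libraries. Both carpels of the male types were above all other libraries, and F-carpel was lower than M-carpel (-1.37 ± 0.09, adjusted p = 2.04e-10). LITCHI004723 (lipoxygenase 6) had 27.1, 27.2 and 26.4 FPKM in F-carpel, against 12.9, 9.72 and 12.2 in M-carpel and 9.08, 9.03 and 8.26 in m-carpel, with m-stamen lowest at 2.53 to 2.94. F-carpel was above every other library, but the change against M-carpel was at the threshold (1.00 ± 0.10), and the call was lost without replicate 2 of F-carpel or of M-carpel, with a smallest change of 0.92.

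**Figure D3:**
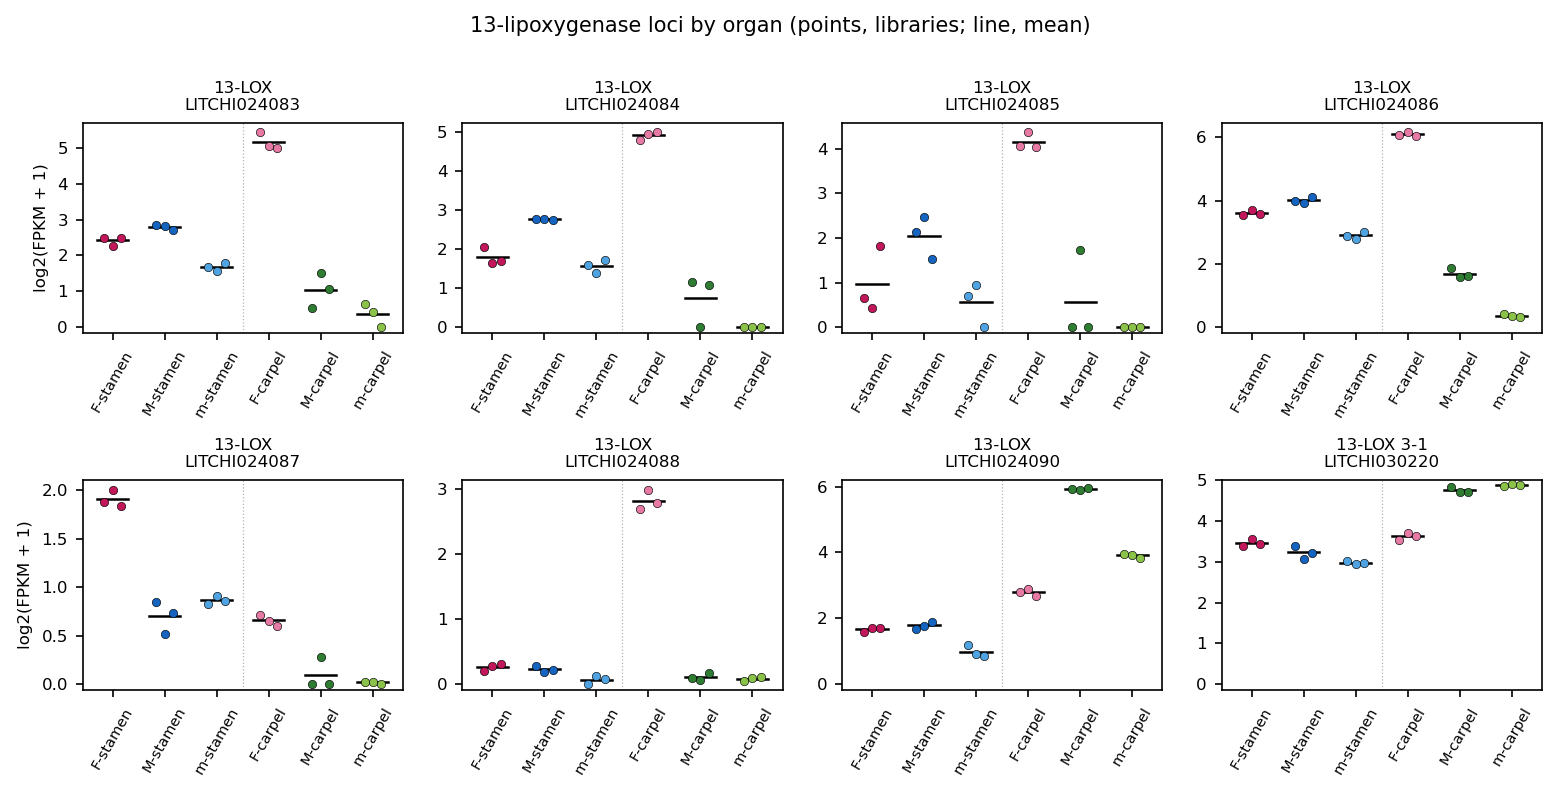
Level of 8 of the 9 13-LOX loci on the log2 (FPKM + 1) scale, stamens left of carpels, with 1 point per library and a line at the organ mean; the vertical scale differs between panels. LITCHI024083 to LITCHI024086 and LITCHI024088 peak in F-carpel, and LITCHI024090 peaks in M-carpel.

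9-LOX enzymes oxygenate the same fatty acids at another carbon and feed other oxylipins. Of the 9 tested, 1 was higher and 4 were lower in F-carpel than in M-carpel. Of all loci tested, 16.3% were higher there and 16.4% lower. LITCHI004066 had 28.1, 28.7 and 30.4 FPKM in F-stamen, 14, 15.2 and 15.1 in M-stamen and 5.22, 5.57 and 5.36 in m-stamen, and carpel levels of 19.1, 20.8 and 20.7 in F-carpel, against 95.6, 87.5 and 94.1 in M-carpel and 142, 137 and 133 in m-carpel. No organ overlapped another, and the order of the carpels was the reverse of that of the stamens. The change was -2.38 ± 0.05 in F-carpel against M-carpel (adjusted p = 3.25e-17), -4.42 ± 0.05 in m-stamen against m-carpel (adjusted p = 5.33e-20) and 2.07 ± 0.05 in F-stamen against m-stamen (adjusted p = 8e-16). LITCHI003970 had 20.3, 21.7 and 21.5 FPKM in F-carpel, against 83.1, 138 and 72.9 in M-carpel and 69.8, 114 and 110 in m-carpel, with a wide spread in both carpels of the male types. F-carpel was below both without overlap (-2.41 ± 0.21, adjusted p = 1.68e-08, against M-carpel).

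In FPKM, M-stamen was the highest organ for the 9-LOX loci LITCHI003969, LITCHI004065 and LITCHI014768, whose libraries there lay above all others. In CPM, the 9 stamen libraries of LITCHI014768 had a median of 54.75 and a highest value of 61.4, so other stamens came close to M-stamen. By mean CPM, M-stamen was the highest organ for 18.9% of the members tested, beside 9.12% of all loci, and 0 members were called there above each other organ. LITCHI003969 had 38, 34.1 and 35.5 FPKM in F-stamen, 96.7, 97.2 and 87.8 in M-stamen and 37.3, 40.4 and 40 in m-stamen, and LITCHI004065 was at 29.9 to 32 FPKM in F-stamen, 72.9 to 88 in M-stamen and 27.1 to 31 in m-stamen. F-stamen was lower than M-stamen for LITCHI003969 (-1.50 ± 0.06, adjusted p = 5.7e-13) and LITCHI004065 (-1.50 ± 0.08, adjusted p = 3.97e-11). LITCHI014768 was at 14.3 to 16.7 FPKM in M-stamen and 1.08 to 1.46 in m-carpel, its highest and lowest organs. LITCHI002474 had 1.43 to 1.7 FPKM in F-stamen, 0.268 to 0.755 in the other stamens and 0 counts in all 9 carpel libraries. With 3 counts over the organ as the floor, F-stamen was at least 38.5-fold above F-carpel.

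The neighbouring 9-LOX loci LITCHI021614 and LITCHI021615 had counts that mirrored each other between libraries. In m-stamen LITCHI021614 had 202, 2842 and 3296 counts and LITCHI021615 had 4881, 2538 and 1881, while their sums were 5083, 5380 and 5177. In m-carpel the counts were 1313, 48 and 87 for LITCHI021614 and 1372, 2907 and 2548 for LITCHI021615, with sums of 2685, 2955 and 2635. Neither locus was called in any of the 15 pairs of organs, whereas their summed counts were higher in m-stamen than in m-carpel (1.10 ± 0.17, adjusted p = 1.66e-05). The sum was chosen after the values were seen, and how reads were assigned to the pair was not tested. M-carpel replicate 1, at 5388 summed counts, was above the other M-carpel libraries at 2636 and 2851.

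In jasmonate synthesis, AOS acts on the 13-LOX product. The annotation of LITCHI011121 names the chloroplast, whereas that of LITCHI001739 does not. Whether each locus annotated as AOS acts in jasmonate synthesis was not tested. LITCHI011121 (AOS 1) had 30.3, 28.2 and 28.4 FPKM in F-stamen, 57.9, 60.2 and 59.1 in M-stamen and 42, 42.1 and 43.2 in m-stamen, and carpel levels of 46.5, 47.3 and 45.6 in F-carpel, against 309, 274 and 284 in M-carpel and 129.7, 134 and 129 in m-carpel. M-carpel was the highest organ and m-carpel the next, and no organ overlapped another. The change was -2.83 ± 0.04 in F-carpel against M-carpel (adjusted p = 6.12e-19), 1.09 ± 0.04 in M-carpel against m-carpel (adjusted p = 2.28e-13) and -2.24 ± 0.04 in M-stamen against M-carpel (adjusted p = 2.07e-17).

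LITCHI001739 (AOS 3) had 1.64, 1.37 and 1.36 FPKM in F-stamen, 40.3, 40.3 and 43.7 in M-stamen and 90.9, 99.4 and 96.2 in m-stamen, and carpel levels of 0.446, 0.313 and 0.54 in F-carpel, against 15.4, 14.1 and 14.3 in M-carpel and 1.37, 1.52 and 1.85 in m-carpel. m-stamen was highest and F-carpel lowest, and the only overlap was between F-stamen and m-carpel. F-stamen was lower than M-stamen (-4.93 ± 0.11, adjusted p = 8.36e-16) and m-stamen (-6.38 ± 0.12, adjusted p = 7.49e-17). m-stamen was above m-carpel (6.16 ± 0.12, adjusted p = 9.72e-18) and M-stamen above M-carpel (1.55 ± 0.09, adjusted p = 1.29e-10). M-carpel exceeded the other carpels in this locus and also in the stamen gene LcPI given above, and the part of stamen RNA in that level was not tested.

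AOC sets the stereochemistry of 12-oxophytodienoic acid. LITCHI005484 had 90.1, 90.9 and 81.3 FPKM in F-stamen, 73.5, 69.8 and 82.6 in M-stamen and 34.1, 33 and 32.4 in m-stamen, and carpel levels of 157, 169 and 151 in F-carpel, against 94, 95.7 and 93.4 in M-carpel and 55.8, 53.1 and 54.8 in m-carpel. F-carpel was above every other library, and it was called against m-carpel (1.30 ± 0.07, adjusted p = 2.61e-11) and not against M-carpel (0.56). LITCHI019276, the other AOC, had 2.14, 2.1 and 3.67 FPKM in F-stamen, 12.9, 14.5 and 14.1 in M-stamen and 2.38, 3.46 and 2.9 in m-stamen, and carpel levels of 8.12, 8.48 and 9.86 in F-carpel, against 5.81, 5.21 and 5.67 in M-carpel and 1.28, 0.758 and 0.958 in m-carpel. M-stamen was highest, and F-stamen, which overlapped m-stamen, was lower than M-stamen (-2.50 ± 0.21, adjusted p = 1.78e-08).

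OPR3 is the peroxisomal reductase of jasmonate synthesis in Arabidopsis. Its locus, LITCHI017545, had 15.5, 16.7 and 16.2 FPKM in F-stamen, 34.5, 34.4 and 35.7 in M-stamen and 21.9, 21.2 and 20.9 in m-stamen, and carpel levels of 29.6, 31.6 and 27.5 in F-carpel, against 33.3, 28.1 and 32.6 in M-carpel and 27.7, 29.6 and 30 in m-carpel. The carpels overlapped each other, F-stamen was the lowest organ, and F-stamen was lower than M-stamen (-1.22 ± 0.07, adjusted p = 8.41e-11). It was called in 2 of the 15 pairs, and the other call, F-stamen against M-carpel (-1.02 ± 0.07), was lost without F-stamen replicate 1, with a change of 0.99. The other 6 OPR loci tested have numbers from LITCHI011707 to LITCHI011715 and are annotated as OPR1, OPR2 or OPR11, so how reads were split between them is uncertain too.

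LITCHI011707 (OPR2) had 19, 17 and 17.7 FPKM in F-stamen, 19.7, 17.6 and 18.4 in M-stamen and 7.07, 7.09 and 7.71 in m-stamen, and carpel levels of 3.96, 4.38 and 4.9 in F-carpel, against 104, 102 and 91.1 in M-carpel and 54.6, 54.3 and 59.1 in m-carpel. M-carpel was highest and F-carpel lowest, and the only overlap was between F-stamen and M-stamen. The change in F-carpel against M-carpel was -4.67 ± 0.09 (adjusted p = 2.67e-17). F-stamen was above F-carpel (2.14 ± 0.09, adjusted p = 3.4e-13), whereas M-stamen was below M-carpel (-2.36 ± 0.08, adjusted p = 7.07e-14) and m-stamen below m-carpel (-2.69 ± 0.08, adjusted p = 7.46e-15). LITCHI011710 (OPR2) and LITCHI011712 (OPR11) were also highest in M-carpel, at 10.6 to 11.3 and 8.07 to 9.21 FPKM. LITCHI011713 (OPR2) was highest in M-stamen, with 12.7, 12.5 and 14 FPKM in F-stamen, 44.6, 48.2 and 51.8 in M-stamen and 29, 28.7 and 28.4 in m-stamen (-1.99 ± 0.06, adjusted p = 2.16e-14, in F-stamen against M-stamen).

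**Figure D4:**
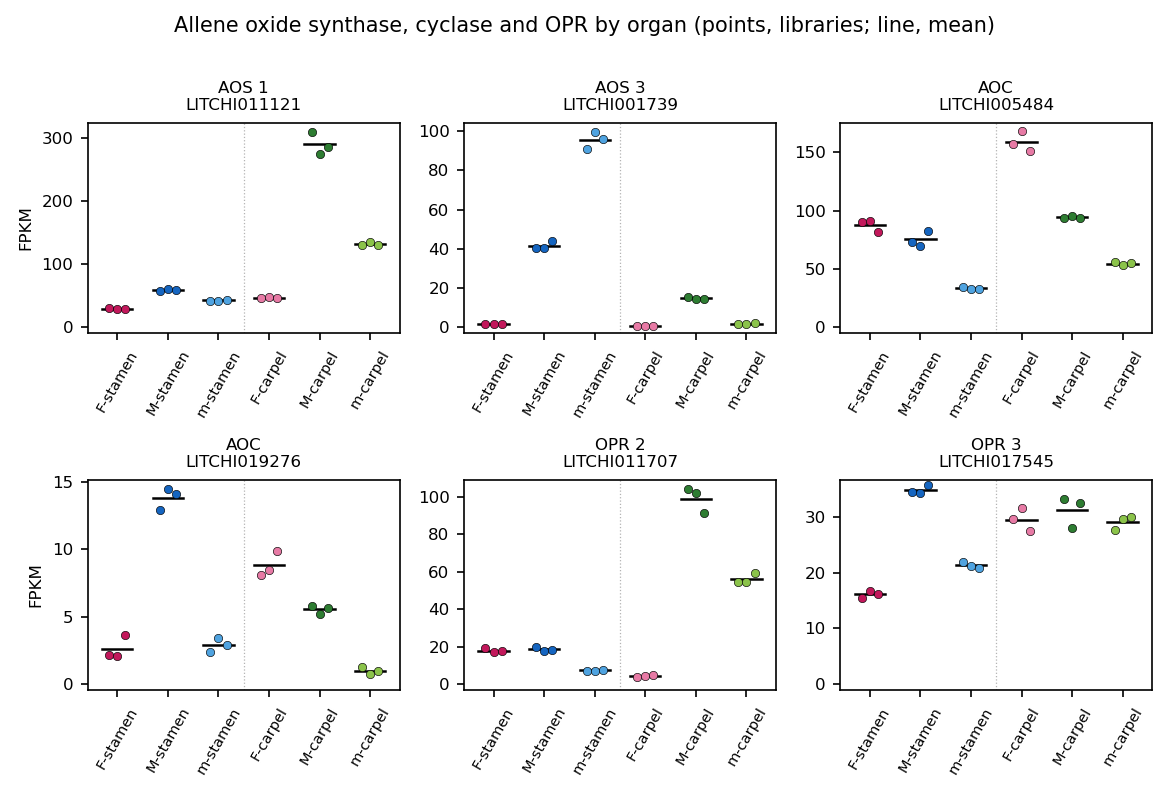
FPKM of both AOS loci, both AOC loci, OPR2 LITCHI011707 and OPR3 LITCHI017545, stamens left of carpels, with 1 point per library and a line at the organ mean; the vertical scale differs between panels. AOS 1 and OPR2 are highest in M-carpel, AOS 3 in m-stamen, and AOC LITCHI005484 in F-carpel.

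JAR1, which makes the active isoleucine conjugate, was LITCHI026924. It had 20.1, 19.9 and 20.4 FPKM in F-carpel, against 19.5, 15.6 and 18.1 in M-carpel and 6.14, 5.48 and 5.86 in m-carpel, and 6.63 to 16.1 in the stamen libraries. m-carpel lay below every other library, and F-carpel (1.56 ± 0.14, adjusted p = 1.24e-08) and M-carpel (1.57 ± 0.14, adjusted p = 3.63e-08) were called above it. The loci of the receptor COI1, LITCHI027516 and LITCHI027520, were at 9.56 to 15.8 and 8.64 to 13.8 FPKM over the 18 libraries, and neither was called in any of the 15 pairs.

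Most TIFY proteins named here are JAZ repressors. LITCHI005842 (TIFY 6B, JAZ3 in Arabidopsis) gave 55.9% of the summed TIFY FPKM, with 189.7, 192 and 186 FPKM in F-stamen, 292, 303 and 299 in M-stamen and 209, 218 and 217 in m-stamen, and carpel levels of 226, 228 and 226 in F-carpel, against 276, 257 and 269.9 in M-carpel and 164, 160.3 and 148 in m-carpel. None of the 15 pairs was called. LITCHI023042, also TIFY 6B, was highest in m-carpel, at 65.4, 64.5 and 61.9 FPKM, and M-carpel, at 30.3, 26.5 and 27.3, was lower (-1.22 ± 0.09, adjusted p = 3.87e-09).

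LITCHI028778 (TIFY 5A, JAZ8 in Arabidopsis) had 20.8, 24.2 and 27 FPKM in F-stamen, 154, 150.3 and 151 in M-stamen and 137, 136 and 136 in m-stamen, and carpel levels of 23, 22.2 and 23.1 in F-carpel, against 68.3, 53.7 and 60.3 in M-carpel and 27.7, 25.1 and 29.3 in m-carpel. M-stamen and m-stamen were above every other library, and F-stamen overlapped F-carpel and m-carpel. F-stamen was lower than M-stamen (-2.78 ± 0.08, adjusted p = 2.49e-14) and m-stamen (-2.87 ± 0.08, adjusted p = 1.46e-14). LITCHI030346 (TIFY 11B, JAZ6 in Arabidopsis) had 7.95, 7.45 and 7.96 FPKM in F-stamen, 27.6, 30.8 and 29 in M-stamen and 13.2, 15.7 and 17 in m-stamen, and 29.5 to 51.9 in the carpel libraries. F-stamen was the lowest organ, below F-carpel (-2.25 ± 0.08, adjusted p = 1.35e-13) and M-stamen (-2.01 ± 0.08, adjusted p = 2e-12).

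The TIFY loci highest in F-carpel were LITCHI014876, LITCHI017075 and LITCHI004576. LITCHI014876 (TIFY 4B, PEAPOD2 in Arabidopsis) had 35.3, 39.1 and 38.2 FPKM in F-carpel, against 7.97, 9.46 and 7.86 in M-carpel and 7.43, 7.88 and 6.57 in m-carpel, and 4.47 to 13.1 in the stamen libraries. F-carpel did not overlap any other organ (1.96 ± 0.12, adjusted p = 1.3e-10, against M-carpel). LITCHI017075 (TIFY 8) had 16.4, 15.1 and 15.7 FPKM in F-carpel, against 5.14, 4.45 and 4.82 in M-carpel and 6.22, 6.51 and 6.18 in m-carpel, again without overlap of F-carpel with another organ (1.52 ± 0.11, adjusted p = 8.36e-10, against M-carpel). LITCHI004576 (TIFY 9, JAZ10 in Arabidopsis) had 26.6, 24 and 26.5 FPKM in F-carpel, against 11.4, 11.4 and 10.1 in M-carpel, where the change of 1.00 was not called, and 2.82, 2.76 and 3.12 in F-stamen, its lowest organ (-2.99 ± 0.11, adjusted p = 1.2e-13, in F-stamen against F-carpel).

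**Figure D5:**
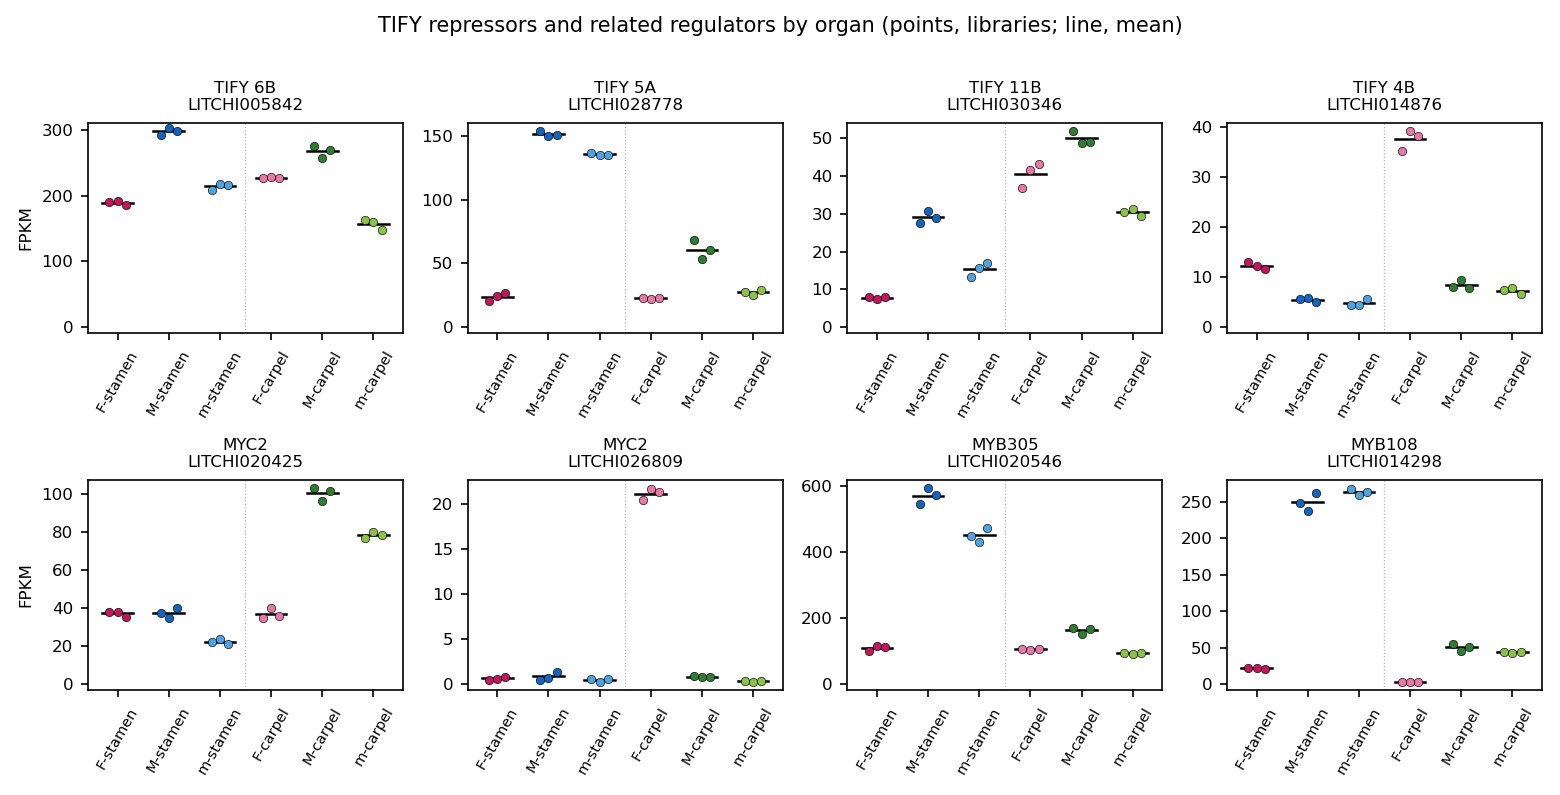
FPKM of 4 TIFY members and of 4 related regulators that are not members, stamens left of carpels, with 1 point per library and a line at the organ mean; the vertical scale differs between panels. TIFY 5A, MYB305 and MYB108 are high in M-stamen and m-stamen and low in F-stamen, and TIFY 4B and MYC2 LITCHI026809 peak in F-carpel.

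Over the 15 pairs of organs, 15 members were called higher in 1 organ than in each of the other 5 (28.3%, beside 12.9% of all loci). The organ was F-carpel for 10 (18.9%, beside 7.3%), namely 4 13-LOX loci, 3 phospholipases A1, TIFY 4B, TIFY 8 and the low 9-LOX LITCHI002462. It was M-carpel for 4 (7.55%, beside 0.868%), namely AOS 1, LITCHI024090, LITCHI011710 and LITCHI011712, and m-stamen for AOS 3 (1.89%, beside 1.89%). By mean level alone, with no call, F-carpel was the highest organ for 28.3% of the members, beside 27.9% of all loci. In the pairs that cross flower types, 28 members were called in F-stamen against M-carpel (52.8%, beside 27.8% of all loci). In F-stamen against m-carpel 24 were called (45.3%, beside 34.8%). In M-stamen against F-carpel 29 were called (54.7%, beside 40.8%), with 30.2% higher beside 21.0% and 24.5% lower beside 19.8%. In M-stamen against m-carpel 26 were called (49.1%, beside 35.6%). For m-stamen, 33 were called against F-carpel (62.3%, beside 48%) and 24 against M-carpel (45.3%, beside 37.6%).

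Summed over its loci, 13-LOX reached 200 ± 7.06 FPKM in F-carpel, against 102 ± 1.94 in M-carpel and 52.2 ± 1.43 in m-carpel (SD, n = 3 each). In CPM, which does not divide by gene length, the same sum averaged 454.4 in F-carpel, against 408.3 in M-carpel and 231.3 in m-carpel, so that F-carpel and M-carpel lay closer together. Summed 9-LOX, outside jasmonate synthesis, was 109 ± 0.879 FPKM in F-carpel, against 321 ± 32.8 in M-carpel and 345 ± 23.2 in m-carpel. Summed AOS was 46.9 ± 0.733 FPKM in F-carpel, against 304 ± 19.1 in M-carpel and 133 ± 2.78 in m-carpel. Summed AOC was 168 ± 8.46 FPKM in F-carpel, against 100 ± 0.915 in M-carpel and 55.5 ± 1.64 in m-carpel. Summed OPR was 57.9 ± 2.33 FPKM in F-carpel, against 186 ± 7.26 in M-carpel and 107 ± 3.75 in m-carpel. The leading locus of this sum was LITCHI011707 (OPR2), with 34.8% of it over all libraries. The OPR3 locus LITCHI017545, by itself, overlapped between the carpels. LITCHI011121 gave 79.4% of the AOS sum over all libraries, and LITCHI005484 gave 93.5% of the AOC sum. As given above, LITCHI005484 was not called in F-carpel against M-carpel. Among the carpels, F-carpel was highest in summed 13-LOX and AOC and lowest in summed 9-LOX, AOS and OPR. Its libraries did not overlap those of the other carpels in any of these 5 sums, in FPKM or in CPM.

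A list of 63 related loci outside the search terms was examined, of which 51 were tested. By annotation it holds TOPLESS and Ninja-family proteins, enzymes of peroxisomal beta-oxidation, plastid desaturases and lipases, hydroperoxide lyases and transcription factors, among others. Whether each of them acts in the jasmonate pathway was not tested. In F-carpel against M-carpel 8 were higher (15.7%, beside 16.3% of all loci) and 21 lower (41.2%, beside 16.4%), with a median of -0.83, beside 0 over all loci tested. In F-stamen against M-stamen 9 were lower (17.6%, beside 8.1%), with a median of -0.35, beside 0.18. None was called higher there in edgeR or DESeq2, beside 10.6% of all loci in edgeR, whereas 5 were higher at an unadjusted p under 0.05 and limma called 0 on log2 (FPKM + 1) and 1 on log2 (FPKM + 0.1). LITCHI022760 (acyl-CoA oxidase 1, of peroxisomal beta-oxidation) had 91.6, 89.5 and 86.4 FPKM in F-carpel, against 181, 157 and 170.2 in M-carpel and 164, 175 and 156 in m-carpel, and was lower in F-carpel than in M-carpel (-1.12 ± 0.04, adjusted p = 1.01e-13). LITCHI025358, annotated as DAD1, the anther lipase of Arabidopsis, had 0.343, 0.185 and 0.49 FPKM in F-stamen, 1.18, 0.931 and 1.21 in M-stamen and 4.26, 3.38 and 3.88 in m-stamen. m-stamen was its highest organ (-3.83 ± 0.42, adjusted p = 4.17e-07, in F-stamen against m-stamen). LITCHI018195, a plastid omega-3 desaturase, which makes linolenic acid, was at 91.4 to 154 FPKM in the stamen libraries, against 21.2 to 33.3 in the carpel libraries (2.24 ± 0.03, adjusted p = 1.9e-20).

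MYC factors are the targets of JAZ repressors. LITCHI020425 (MYC2) had 34.8, 40 and 35.7 FPKM in F-carpel, against 103, 96.4 and 101 in M-carpel and 77.1, 80.2 and 78.2 in m-carpel, and F-carpel was lower than M-carpel (-1.64 ± 0.07, adjusted p = 7.34e-13). LITCHI021833 (MYC4) was at 0.525 to 0.686 FPKM in F-carpel, against 5.14 to 5.65 in M-carpel and 10.9 to 13 in m-carpel. LITCHI026809, also MYC2 and picked after its values were seen, had 20.4, 21.6 and 21.4 FPKM in F-carpel and at most 1.35 in any other library (4.51 ± 0.32, adjusted p = 8.95e-10, against M-carpel).

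MYB108 acts downstream of jasmonate in the maturing stamens of Arabidopsis. Its locus, LITCHI014298, had 22.5, 21.7 and 21.3 FPKM in F-stamen, 248, 237 and 262 in M-stamen and 266, 259.5 and 263 in m-stamen. F-stamen lay far below the others, which overlapped each other (-3.62 ± 0.06, adjusted p = 2.93e-17, in F-stamen against M-stamen). LITCHI020546 (MYB305) had 101, 115 and 112 FPKM in F-stamen, 545, 595 and 574 in M-stamen and 449, 433 and 475 in m-stamen, and F-stamen was again lowest of the stamens (-2.50 ± 0.05, adjusted p = 1.99e-16, against M-stamen). In M-carpel MYB108 was at 45.7 to 54.5 FPKM and MYB305 at 152 to 172, against 2.8 to 3.27 and 102 to 107 in F-carpel. M-carpel was also the carpel with the highest LcPI, and the part of stamen RNA in these levels was not tested.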

How the data were processed

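RNA of stamens and carpels was sequenced. The deposited table holds whole-number read counts per gene model, not normalized, and FPKM values that the authors calculated with Cufflinks after trimming with Trimmomatic. The submitters' processing notes name HISAT2 2.0.4 and StringTie. The sources used here give neither the genome build, the counting program nor the strand setting. The table's FDR and log2 fold change columns for 9 pairs of organs, from the authors' DESeq2, were not used. Columns were mapped to samples by label, with 0 left over, and 0 rows named no gene.

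Counts and FPKM were summed over the models of each locus. A model with 6 organ means was fitted to all 18 libraries with edgeR 4.0.16 in R 4.3.3 (filterByExpr, TMM factors of 0.8207 to 1.168, quasi-likelihood F-test). The same kind of fit was run beforehand on simulated counts of F-carpel and M-carpel alone, so the model of 6 organs was not itself tested that way. Calls needed an FDR under 0.01 together with a log2 change of 1 or more in size. The standard error was taken as the log2 change over the root of F. Bounds against an organ at 0 counts used a floor of 3 counts over its 3 libraries, which is 0.0282 CPM in F-carpel and 0.0343 CPM in m-carpel, and this covers counting error alone. FPKM is not TMM-scaled, so FPKM ratios can differ from fitted changes.

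Alternatives were DESeq2 1.42.0, RLE size factors, no filter, a mean CPM of 1 or more, limma 3.58.1 on log2 (FPKM + 1) and log2 (FPKM + 0.1), a replicate block, gene models singly, only the organs compared, and leaving out each library. Summing a neighbouring pair was added after seeing the data. Members and lists were chosen with earlier results of these data known, and the pattern for JAM-type bHLH genes was narrowed after the table was read. Named were the 3 loci with the highest mean FPKM of each role, every tested AOS, AOC, JAR1 and COI1 locus, the 3 largest called rises and falls of each comparison (mean log2 CPM of at least 1), and members called above all other organs. Of the related lists, the most abundant locus and that with the largest called change in stamens against carpels could be named. Other loci were added after their values were seen.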

Additional observations from a re-analysis of the deposited data

Results flagged for a closer look

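The stamen against carpel difference was set against itself between types of flower as an interaction in edgeR's quasi-likelihood fit, and these are the members where that test found a difference. Between F and M flowers 27 members differed. In F flowers the stamen was higher relative to the carpel than in M flowers for OPR2 LITCHI011707 (by 4.51 on the log2 scale), the 9-LOX LITCHI004066 (3.25) and the 13-LOX LITCHI024090 (3.23). It was lower in F flowers for the 13-LOX loci LITCHI024084 (-6.31), LITCHI024088 (-5.87) and LITCHI024083 (-5.29).

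Between F and m flowers 32 members differed. The stamen was relatively higher in F flowers for LITCHI004066 (5.08), LITCHI011707 (4.84) and OPR2 LITCHI011710 (3.39), and relatively lower for LITCHI024086 (-7.20) and LITCHI024083 (-5.82). The fitted value of -11.21 for LITCHI024084 is not a bound, since m-carpel had 0 counts of it.

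Between M and m flowers 13 members differed. The stamen was relatively higher in M flowers for LITCHI004066 (1.83), LITCHI003970 (1.497) and the phospholipase A1 LITCHI020912 (1.46). It was relatively lower in M flowers for AOS 3 LITCHI001739 (-4.61), LITCHI024086 (-1.92) and the phospholipase A1 LITCHI029070 (-2.71), whose call was lost in 13 of the 18 fits without 1 library, at an adjusted p of 0.0101 to 0.0213 in edgeR.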

How the results depend on the processing

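No count of members called moved by more than 1.5 times under any alternative run. With 1 library left out, the count was 23 to 26 in stamens against carpels, 22 to 25 in F-stamen against F-carpel, 20 to 23 in M-stamen against M-carpel, 25 to 26 in m-stamen against m-carpel, 32 to 33 in F-carpel against M-carpel, 34 to 35 in F-carpel against m-carpel, 14 to 17 in M-carpel against m-carpel, 14 to 19 in F-stamen against M-stamen, 13 to 16 in F-stamen against m-stamen and 9 to 11 in M-stamen against m-stamen. Members called above all other organs numbered 14 to 17. These counts do not show direction, and the splits given above differed between edgeR and limma. For the named loci, 101 values were followed, and 13 lost their call with limma on log2 (FPKM + 1). With only the organs compared 5 of 67 lost it, and with 1 library left out 36 of 1818 did. These named values changed sign only where the change was near 0. For LITCHI023912 in stamens against carpels it was 0.0266 with DESeq2, 0.0264 with RLE size factors and -0.0739 to 0.0489 with 1 library left out, and for LITCHI002462, stamens minus carpels, it was -0.2181 to 0.1792 with 1 library left out; the cause was not tested. Limma on log2 (FPKM + 0.1) moved the median of all loci by 0.32 in F-stamen against m-stamen, by 0.22 in M-stamen against m-stamen and by -0.21 in m-stamen against m-carpel, so splits there are relative to those shifts. LITCHI024085 had 28 counts over the 3 libraries of F-stamen, 15 over m-stamen and 17 over M-carpel, so its values there carry wide counting error.

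Whether libraries of the same replicate number were paired by design is not given in the labels. Deviations of same-numbered libraries correlated at -0.0369 to 0.0611 (median -0.0027), and those of other-numbered libraries at -0.0629 to 0.0455 (median -0.001). With a replicate block, 24 members were called in stamens against carpels, beside 24 without it, and 24 in F-stamen against F-carpel, beside 25.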
